A study of Mus musculus with 6 samples.

Results

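The chaperonin TRiC, also called CCT, is a barrel of a pair of stacked rings in the cytosol. Each ring is built from 8 related subunits, encoded by Tcp1, Cct2, Cct3, Cct4, Cct5, Cct6a, Cct7 and Cct8. Newly made proteins, above all actin and tubulin, fold inside the closed barrel while the subunits hydrolyse ATP, and one copy of each subunit is needed per ring. Neurons use large amounts of both cytoskeletal proteins, and mutations of CCT subunits are known from inherited neuropathies of humans and rats. The mRNAs of these 8 genes are described here by their abundance, their transcript forms and the length of their poly(A) tails, the stretch of adenosines at the 3′ end that influences stability and translation.

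The genes were chosen by symbol as the full set of subunits and not by a measured value, though earlier results of these data were known. Every transcript row with one of the symbols was taken. The members had 67 of the 141196 transcript rows of the table and 8 of its 52962 genes. At least 1 read with a tail estimate was present in 29 of the 67 rows. At least 10 such reads in each of the 6 libraries, the minimum for a test of tail length, were present in 11 rows, with at least 1 from every gene. All 8 genes passed the filter on low counts. The other 56 rows enter the sums over each gene, and of them only short forms of Cct2 and Tcp1 are described on their own.

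The RNA came from brain cortex of C57BL/6 mice and was read directly as RNA on a nanopore instrument, so that a read starts in the poly(A) tail of a single molecule. Of the 6 libraries, 3 were from wild-type (WT) mice and 3 from mice lacking Fmr1 (KO), the gene for the RNA-binding protein FMRP. The labels give no age or sex, do not say how the KO allele was made, and do not say whether libraries of a group came from separate animals, so p-values measure the spread between these libraries, which may be technical. Fmr1 itself had 41.7, 45.1 and 46.4 CPM (reads with a tail estimate, scaled to a common library total) in WT and 10.9, 11.8 and 8.22 CPM in KO, with the groups far apart (log2 change -2.13 ± 0.15, SE; edgeR quasi-likelihood test, Benjamini-Hochberg adjusted p = 1.22e-10).

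The libraries held 2404074 to 3849077 reads with a tail, the fewest in KO replicate 2. Of these, 3081 to 4664 per library came from TRiC genes, 24739 in all. A single subunit had 255 to 721 reads in a library, for which the counting error alone is between 6.26% and 3.72% of the count. As a percentage of the reads recovered from the deposited RPM values, reads with a tail came to 80.6 ± 4.40% in WT libraries and 75.8 ± 1.36% in KO libraries (SD, n = 3 each, two-sided exact permutation p = 0.2, the smallest possible being 0.1). This is a ratio of counts that may rest on separate assignments of reads. Cct6b, for example, had 4 reads with a tail over all libraries but 1 read recovered from RPM. All 9 markers of excitatory neurons, which a cortex sample should hold, were measured well enough to be tested. Markers of choroid plexus and ependyma summed to between 42.6 and 840.0 CPM in WT and between 19.4 and 32.9 CPM in KO, where Ttr had 422, 28.4 and 821 CPM in WT replicates 1 to 3, so the WT libraries were not alike in this respect.

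Because the tail is added downstream of a poly(A) signal, the 30 bases that run from 40 to 11 bases before the annotated 3′ end are shown for the transcript row with most reads of Tcp1, Cct2, Cct3, Cct4, Cct5, Cct7 and Cct8. They were read from the GENCODE release 21 transcripts (mm10) and are written 5′ to 3′ on the strand of the gene. Capitals mark AATAAA, the usual signal, and ATTAAA, its commonest variant; both were searched on the transcript strand only.
Tcp1 (chr17:12925028-12925057, plus strand): ggcctctaactcagaAATAAAtctgcctgc
Cct2 (chr10:117051011-117051040, minus strand): tcatactgtgtATTAAAATAAAaatccagt
Cct3 (chr3:88321728-88321757, plus strand): catttagtttgcttccaatgATTAAAtcta
Cct4 (chr11:23003741-23003770, plus strand): cctcccttgtcaaccttaaatgaatgctga
Cct5 (chr15:31590810-31590839, minus strand): gctggAATAAAagcagctgtctggtaactg
Cct7 (chr6:85468436-85468465, plus strand): gtatacttggaaatagaagtaaagaattgt
Cct8 (chr16:87483336-87483365, minus strand): gtatttaAATAAATAAAcatgatttttttt
The windows of Tcp1 and Cct5 held 1 AATAAA each, that of Cct3 held 1 ATTAAA, that of Cct2 held both with a shared base, and that of Cct8 held AATAAA at 2 overlapping positions. The windows of Cct4 and Cct7 held neither. Over 10025 protein-coding genes, 79.3% of most-read transcripts held at least one of these motifs in the same window, 64.8% AATAAA and 16.9% ATTAAA. A match or its absence describes these letters in this window only.

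The 8 genes lie on 8 different chromosomes (mm10): Tcp1 on 17 (12915701 to 12925067, plus strand), Cct2 on 10 (117051001 to 117063814, minus), Cct3 on 3 (88297116 to 88321767, plus), Cct4 on 11 (22990519 to 23003780, plus), Cct5 on 15 (31590800 to 31601804, minus), Cct6a on 5 (129786998 to 129846371, plus), Cct7 on 6 (85451514 to 85468475, plus) and Cct8 on 16 (87483326 to 87495873, minus). Genes on the opposite strand overlap Tcp1 (Mrpl18 and Acat3), Cct6a (Psph), Cct7 (Pradc1) and Cct8 (Usp16). How reads were assigned with respect to strand is not stated there, so the counts of these 4 subunits are uncertain to the extent of those overlaps. Cct6a and its most-read row are classed in this release as a processed transcript and not as protein coding.

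In WT cortex the 8 subunit mRNAs lay within a narrow band of abundance. Their means ran from 192 ± 12.6 CPM for Tcp1 down to 102 ± 4.75 CPM for Cct4 (SD, n = 3), a ratio of 1.88. Between them came Cct7 (186 ± 1.14 CPM), Cct6a (176 ± 3.69), Cct8 (174 ± 4.71), Cct2 (138 ± 3.32), Cct5 (136 ± 8.45) and Cct3 (103 ± 7.92). Each was above 85.6% to 93.0% of the 11323 genes ranked. Among neighbours in this order, the WT ranges of Tcp1 and Cct7 overlapped, as did those of Cct6a and Cct8, of Cct2 and Cct5, and of Cct3 and Cct4. The steps from Cct7 to Cct6a, from Cct8 to Cct2 and from Cct5 to Cct3 had no overlap. Of the 28 pairs of subunits, 21 did not overlap over the 6 libraries.

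Since each molecule gives 1 read whatever its length, CPM already compares molecules between genes, and division by length raises short transcripts. Divided by the length of the most-read transcript in kb all the same, 6 subunits were closer together. Tcp1 had 78.5 ± 5.15, Cct7 76.3 ± 0.468, Cct5 73.4 ± 4.56, Cct8 72.8 ± 1.97, Cct6a 71.6 ± 1.502 and Cct2 70.3 ± 1.70 CPM per kb in WT, and every step between these neighbours lay within the spread of the libraries. Cct3 (52.1 ± 4.01 CPM per kb) was below them in all 6 libraries, and Cct4 (41.0 ± 1.91 CPM per kb) was below Cct3 in all 6. On this scale 12 of 28 pairs did not overlap, and the ratio of highest to lowest was 1.91.

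**Figure D1:**
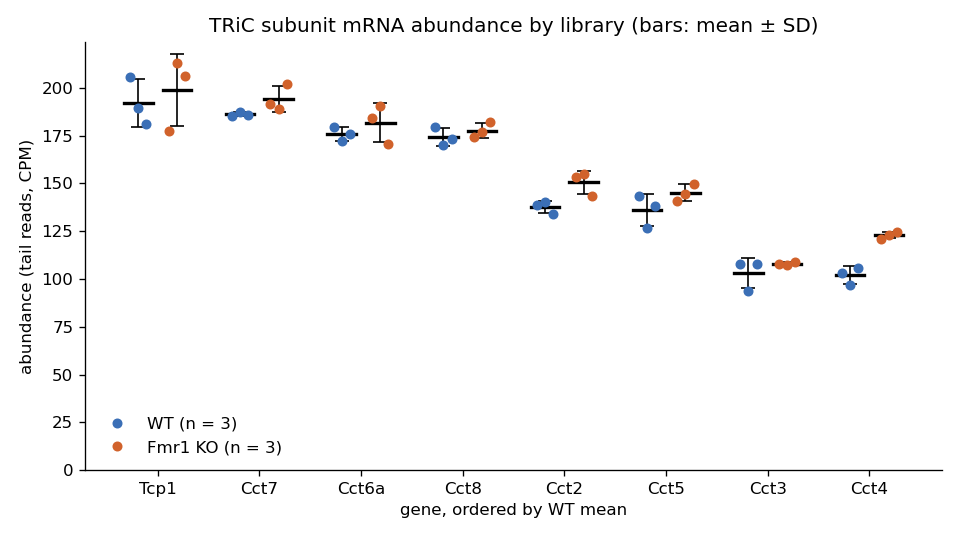
Abundance of the 8 TRiC subunit mRNAs in CPM of reads with a tail (linear axis from 0), with 1 point per library for 3 WT and 3 Fmr1 KO libraries and bars for the mean ± SD. Tcp1, Cct7, Cct6a and Cct8 lie near the top, Cct3 and Cct4 lowest in WT, and the KO points of Cct4 (121 to 124 CPM) lie above its WT points (96.7 to 106 CPM).

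Poly(A) tails of all 8 subunits were shorter than those of the median gene in every library. The median over genes with at least 10 reads in every library was 142, 146 and 147 nt in WT against 142, 140.5 and 145 nt in KO. Averaged over all TRiC reads, the tail was 118, 119.5 and 123 nt in WT against 123, 118 and 123 nt in KO, so the genotypes overlapped. By subunit, WT means ran from 129 ± 6.65 nt for Cct8 to 113 ± 1.41 nt for Cct4 (SD, n = 3), a ratio of 1.15. The other means were 125 ± 3.81 nt for Cct3, 124 ± 4.25 nt for Cct6a, 121 ± 6.33 nt for Cct2, 118 ± 0.475 nt for Tcp1, 115 ± 2.23 nt for Cct7 and 114 ± 2.99 nt for Cct5.

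Only the step from Tcp1 to Cct7 in this order was free of overlap between the WT ranges. Of the 28 pairs, 6 did not overlap over the 6 libraries. In WT, between 6.20% (Cct4) and 22.3% (Cct8) of the 11323 genes had a shorter tail than the subunit. Relative to the median gene of the same library, the tail was 0.759 to 0.930 times as long in WT and 0.774 to 0.927 times as long in KO. No test was made of the set against other genes.

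**Figure D2:**
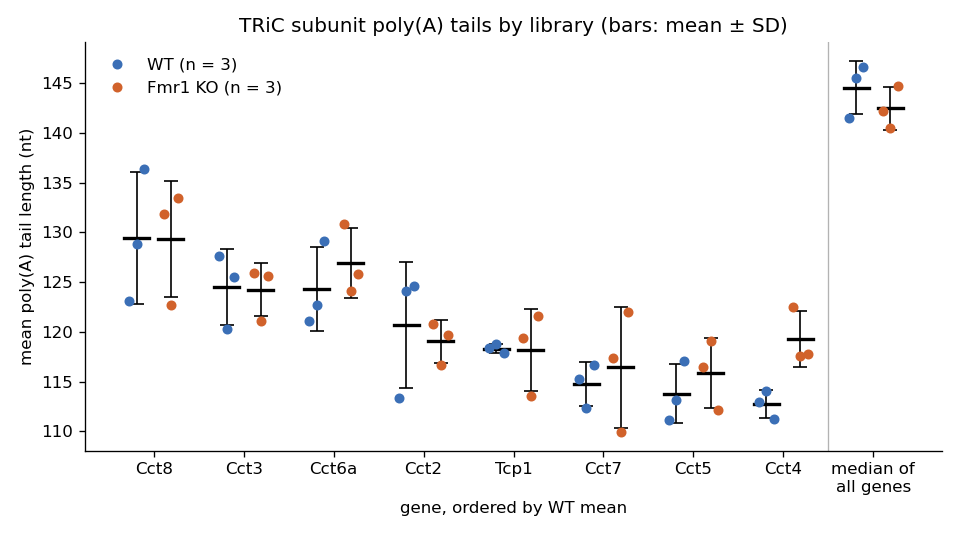
Mean poly(A) tails (nt) of the 8 TRiC subunits, weighted by reads over each gene's transcript rows, with 1 point per library and bars for the mean ± SD; the pair at the right is the median over all genes with at least 10 reads in every library, and the axis does not start at 0. Every point of a subunit, up to 136 nt in Cct8, lies below the library medians of 140.5 to 147 nt, and Cct4 alone has all KO points above all WT points.

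The study set KO cortex beside WT to ask how the loss of FMRP alters tails. For the abundance of the TRiC mRNAs, none of the 8 genes passed the test (edgeR quasi-likelihood, adjusted p under 0.05), where 1.03% of the 12543 genes tested did, and 1 of 8, Cct4, had an unadjusted p under 0.05, where 12.9% did. All 8 log2 changes of KO over WT were above 0 in this fit, with a median of 0.07 where the median of all genes was 0.00, but those of Tcp1, Cct5 and Cct8 were below 0 (-0.015, -0.0028 and -0.022) when RPM values without TMM scaling were fitted with limma, where the median of all genes was lower too (-0.05). Of all genes, 49.4% had a log2 change above 0. The KO libraries lay entirely above the WT libraries for 3 of 8 subunits (Cct2, Cct4 and Cct7), where this held for 9.12% of all genes.

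Summed over the 8 subunits, abundance was 1243, 1177 and 1201 CPM in WT and 1251, 1299 and 1287 CPM in KO, without overlap but with only a narrow gap. Such a gap was not particular to TRiC. Among the gene lists given below, the sums of chaperonin relatives, prefoldin and phosducin-like cofactors were also higher in KO without overlap. The same held for the actin, tubulin and WD40 lists. The sums of the R2TP genes, the tubulin cofactors and the Hsp70 and Hsp90 system overlapped. In the same libraries the 9 markers of excitatory neurons, of which only Nrgn was called (higher in KO), summed to between 3905 and 4376 CPM in WT and between 4577 and 4822 CPM in KO. Nrgn carried most of this sum (2498 ± 141 CPM in WT and 2874 ± 121 CPM in KO), and without it the sums were 1545 to 1735 and 1781 to 1866 CPM. Of the 9 markers, 5 had a log2 change above 0 and 4 below (Slc17a6, Rorb, Cux2 and Tbr1, from -0.39 to -0.0066). The 7 markers of vessels and meninges, none called, summed to between 219 and 220.2 CPM in WT and between 184 and 207 CPM in KO. Both sums were apart between genotypes, and their part in the TRiC values was not tested. In bulk tissue, a different number of cells of a type and a different amount of RNA per cell cannot be told apart.

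Cct4, which differed most between the genotypes, is given first, followed by the other subunits of its side of the ring and then by the other side. In yeast, the side formed by the counterparts of Cct5, Cct2, Cct4 and Tcp1 binds ATP more tightly than the side formed by those of Cct3, Cct6a, Cct8 and Cct7.

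Cct4 encodes the delta subunit, and a missense mutation of it underlies a sensory neuropathy of the rat. Its mRNA had 103, 96.7 and 106 CPM in WT and 121, 123 and 124 CPM in KO. The lowest KO library was above the highest WT library. The difference was 20.5% of the WT level (95% confidence interval 8.48% to 33.8%; log2 0.27 ± 0.07, SE). It did not pass the test over all genes (edgeR, unadjusted p = 0.00114, adjusted p = 0.0826), nor with DESeq2 (adjusted p = 0.134; 2.54% of the genes it gave an adjusted p were called) or under the other settings, in which the adjusted p lay between 0.0595 and 0.272. The read counts recovered from RPM gave a log2 change of 0.25 (edgeR, adjusted p = 0.0940, where 0.789% of genes were called).

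As a share of all TRiC reads, Cct4 made up 8.31%, 8.22% and 8.81% in WT and 9.68%, 9.48% and 9.66% in KO. Here too the genotypes did not overlap. The share of Cct8 was the only other one apart, at 14.4%, 14.5% and 14.4% in WT and 13.9%, 13.6% and 14.2% in KO. Since shares of one sum move against each other, these are descriptions of the same counts. With WT replicates 1 and 3, which had high Ttr, left out in turn, the log2 change of Cct4 was 0.28 and 0.30, and it was 0.23 without WT replicate 2. Leaving out either library with high Ttr kept the other in the fit, so a link of Cct4 to Ttr was not tested.

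Cct5, the epsilon subunit, is mutated in a human hereditary sensory neuropathy. It had 143, 127 and 138 CPM in WT and 141, 145 and 149.7 CPM in KO, and the genotypes overlapped. Its log2 change was 0.09 ± 0.07 (edgeR, adjusted p = 0.641), with an interval of -3.78% to 18.4%, and 0.048 to 0.13 with 1 library left out in turn.

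Cct2, the beta subunit, is also reported in human cells as a receptor that takes protein aggregates to autophagy. It had 139, 140.4 and 134 CPM in WT and 154, 155 and 144 CPM in KO. The groups were apart, by about 3 CPM between KO replicate 3 and WT replicate 2. The log2 change was 0.13 ± 0.07 (edgeR, adjusted p = 0.469), with an interval of -1.18% to 20.9%.

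Tcp1, the alpha subunit, gave the complex its name. Summed over its rows it was the most abundant member by the mean, but it was above Cct7 in only 4 of 6 libraries. The sum includes a retained-intron form, described below, with 10.7% to 14.6% of its reads in WT. In CPM, not relative to the mean, Tcp1 also had the widest spread within either genotype, with 206, 189 and 181 CPM in WT and 177, 213 and 206 CPM in KO. The lowest and the highest of the 6 values were both in KO. Its log2 change was 0.05 ± 0.08 (edgeR, adjusted p = 0.848; interval -7.16% to 15.02%), and between 0.0011 without KO replicate 2 and 0.13 without KO replicate 1.

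On the other side of the ring, Cct3, the gamma subunit, had 108, 93.9 and 107.7 CPM in WT and 108, 107.5 and 109 CPM in KO. WT replicate 2 was low and the other 5 libraries were level. Cct6a, the zeta subunit, had 179, 172 and 176 CPM in WT and 184, 191 and 171 CPM in KO, and KO replicate 3 fell below every WT library. Cct8, the theta subunit, whose overexpression extends life span in Caenorhabditis elegans, had 179, 170.1 and 173 CPM in WT and 174, 177 and 182 CPM in KO, which overlapped. Cct7, the eta subunit, had 186, 188 and 186 CPM in WT and 192, 189 and 202 CPM in KO, apart by little more than 1 CPM. None of these 4 passed the test: the log2 changes were 0.07 ± 0.08 for Cct3, 0.05 ± 0.07 for Cct6a, 0.03 ± 0.07 for Cct8 and 0.06 ± 0.07 for Cct7 (SE; edgeR, adjusted p of 0.768, 0.833, 0.907 and 0.759). Their intervals together ran from -7.37% to 17.1%. With 1 library left out in turn, the log2 change ran from 0.0086 (without WT replicate 2) to 0.10 for Cct3, from 0.017 to 0.095 for Cct6a, from 0.011 to 0.050 for Cct8 and from 0.033 to 0.082 for Cct7.

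In the authors' deposited table, which compares transcript rows, the log2 values of the 8 most-read rows were all negative. Taking the values as WT over KO, as the positive values of Fmr1 there require, Cct4 had -0.27 with an unadjusted p of 0.0142, and the other 7 ran from -0.12 for Cct2 to -0.06 for Cct7, with the smallest p at 0.219. These values rest on the same libraries and are no separate evidence. In the edgeR test of transcript rows, 0 of the 11 rows tested were called, where 0.517% of 19933 were, and 1 of 11, that of Cct4, had an unadjusted p under 0.05, where 10% did.

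For tail length between the genotypes, limma called 0 of the 11 TRiC rows and 0 of all 16168 rows tested (0%). At an unadjusted p under 0.05 stood 1 of the 11 and 5.84% of all rows. Of the 8 most-read rows, 5 had a log2 change of tail length above 0 and 3 below, with a median of 0.01, beside a median of -0.01 over all genes and 41.2% of all rows above 0. None of the 8 had an unadjusted p under 0.05 in this fit. When each library was centred on its median, which moved the median of all rows from -0.01 to 0.0048, the 3 below 0 (Tcp1, Cct2 and Cct3) came to lie above 0.

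The row of Cct4 was the only one of the 8 with the genotypes apart. Its mean tail was 113, 113.9 and 111 nt in WT against 123, 118 and 118 nt in KO, resting on 292 to 424 reads in each library. A KO tail longer without overlap was found in 3.41% of all rows tested. The log2 change was 0.08 ± 0.04 (SE), or 5.77% with an interval of -0.763% to 12.7% (limma, unadjusted p = 0.0759, adjusted p = 0.849). The unadjusted p was 0.0445 with libraries centred and 0.0447 with at least 30 reads in every library. With weights from read number it was 0.0144, where the interval was 1.24% to 10.9%. Other limma settings gave higher values. The unadjusted p was 0.113 with at least 3 reads in every library, where the interval was -1.76% to 13.9%. It was 0.0734 without the log scale and 0.117 with the replicate number as a block. Leaving out each library in turn, it ran from 0.0897 to 0.220. The adjusted p with limma stayed between 0.638 and 0.999 over the alternatives. Of 10619 genes with both values, 32 had the KO libraries higher without overlap in both abundance and tail length, and Cct4 was among them. Taken singly, a longer KO tail without overlap was found in 341 of these genes. Higher KO abundance without overlap was found in 9.12% of the 12543 genes tested. Whether 32 is more than these shares give together was not tested.

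The other most-read rows overlapped between genotypes. Cct8 had 123, 129 and 136 nt in WT against 132, 123 and 133 nt in KO, the longest of the set by the mean of either genotype but not in every library. Cct6a had 121, 123 and 129 nt in WT against 131, 124 and 126 nt in KO. Cct7 had 115, 112 and 117 nt in WT against 117, 109 and 122 nt in KO. In KO the spread of Cct7 (SD 6.21 nt) was wider than in WT (SD 2.34 nt).
Cct5 had 111, 113 and 117 nt in WT against 116, 119 and 112 nt in KO. Cct2 had 112, 123.5 and 124 nt in WT against 121, 116 and 118 nt in KO, where WT replicate 1 was the lowest of all 6. Cct3 had 128, 119 and 123 nt in WT against 126, 121 and 123 nt in KO. The 95% intervals of the change in these 6 rows and in the Tcp1 row lay between -9.28% and 10.1%, so changes of that size are not told from none at this depth and number of libraries.

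**Figure D3:**
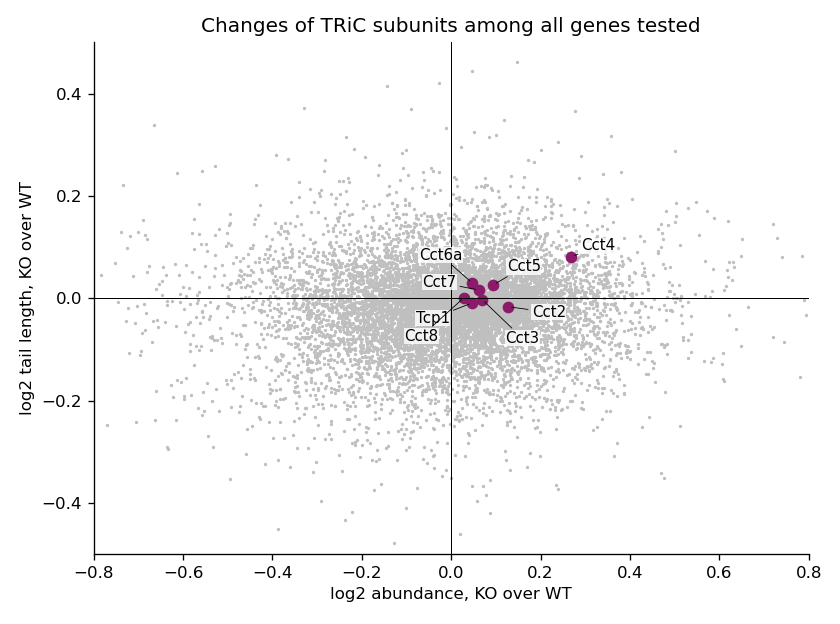
Log2 change of abundance (x axis) and of mean tail length of the most-read row (y axis), KO over WT, for 10619 genes (grey, of which 32 lie outside the axes) and the 8 TRiC subunits (purple). Cct4 stands apart from the other 7, which lie close to 0 on both axes; all 8 are right of 0 in this TMM-scaled fit, but Tcp1, Cct5 and Cct8 were below 0 with limma on unscaled RPM, where the median of all genes was -0.05.

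In most subunits nearly all reads were assigned to 1 annotated transcript form. How reads were divided between forms with nearly the same 3′ end is not stated. The most-read row held over 99% of the gene's reads in 6 of the 8 genes, from 99.2% for Cct2 to nearly all reads for Cct4. It held 91.7% for Cct3 and 82.3% for Tcp1.

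Tcp1 had 3 rows with enough reads for a test. The coding form of 2446 nt ended at the distal 3′ end (12925067), while a retained-intron form of 3419 nt and a coding form of 1902 nt ended 505 and 511 bases upstream. The windows before these proximal ends, shown because both forms share the same ATTAAA, held no AATAAA:
Tcp1, 3419 nt form (chr17:12924523-12924552, plus strand): ccttgggtgtctcacATTAAAgtacagcaa
Tcp1, 1902 nt form (chr17:12924517-12924546, plus strand): ccgtagccttgggtgtctcacATTAAAgta
The retained-intron form made up 14.6%, 12.3% and 10.7% of Tcp1 reads in WT and 11.96%, 11.88% and 14.39% in KO, with overlap. Its tail in WT was 119 ± 2.57 nt, and that of the distal coding form 118 ± 1.06 nt, a difference within the spread. Elsewhere in the table, 72.2% of 558 retained-intron rows had a longer WT tail than the most-read coding row of the gene, by 9.70 nt at the median.

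The 1902 nt form of Tcp1 was the row with an unadjusted p under 0.05. Its tail was 127, 122 and 134 nt in WT against 132, 162 and 152 nt in KO, from 10 to 37 reads in a library. The lowest KO value lay below the highest WT value, so the groups overlapped. The log2 change was 0.21 ± 0.08 (SE; limma, unadjusted p = 0.0373, adjusted p = 0.825), and its longest value came from the library with 10 reads.
Its abundance did not pass either (log2 -0.37 ± 0.26; edgeR, adjusted p = 0.676).

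For Cct3, a second coding form of 1804 nt held 6.56% of the reads and ended 1 base before the main form. Its tail was 109, 133 and 157 nt in WT against 129, 124 and 149.97 nt in KO, from 16 to 29 reads in a library, too wide a spread to set it apart from the main form. A short Cct2 form of 569 nt with 24 reads in all had a mean tail of 204 nt over these reads, where the main form had 119 nt over 2839. With 2 to 6 reads in a library this was not tested. A 614 nt coding form of Tcp1 went the other way, with 103 nt over 41 reads, where its main form had 118 nt over 3189.

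**Figure D4:**
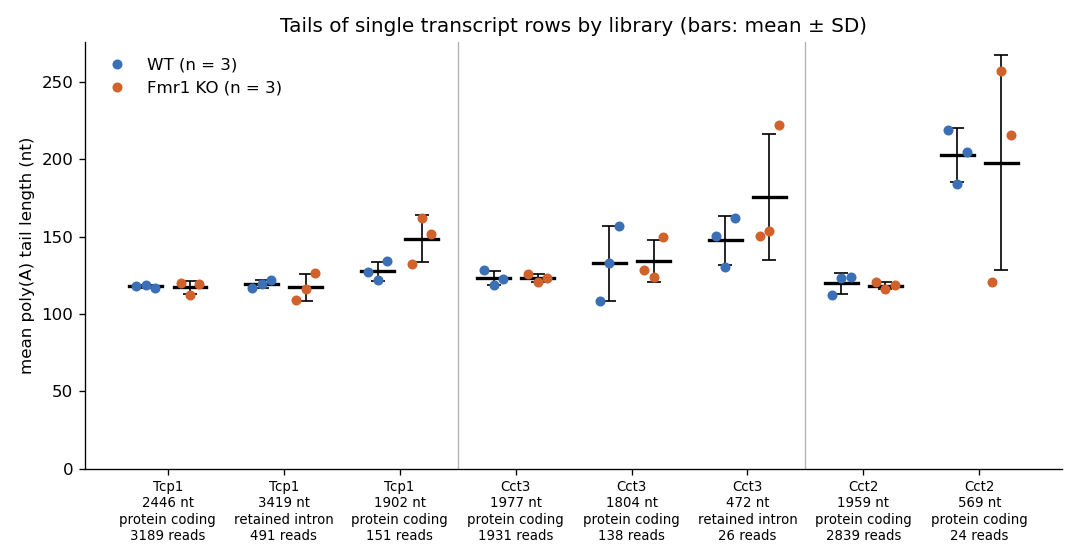
Mean tail length in nt (axis from 0) of single transcript rows of Tcp1, Cct3 and Cct2, 1 point per library with bars for the mean ± SD; the number of reads is summed over 6 libraries. The 3419 nt form of Tcp1 (119 nt in WT) lies level with the 2446 nt form (118 nt), and the rows with few reads scatter widely, up to 257 nt from 2 reads in the 569 nt form of Cct2.

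Close copies took almost no reads. Cct6b, the paralog of Cct6a used in testis, had 4 reads with a tail over all libraries, and Cct8l1 and the pseudogenes Tcp1-ps1 and Cct3-ps1 had none.

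Genes that act with TRiC, its substrates and other chaperonins were taken from lists drawn up by name. Over the 9 lists, abundance was called for 1 of 87 gene records tested (1.15%), a share near the 1.03% of all genes. In the list of 20 members of the cytosolic Hsp70 and Hsp90 system, which binds chains before or instead of TRiC, Dnajb1, an Hsp40 co-chaperone induced by heat shock, had 56.1, 59.3 and 49.5 CPM in WT and 79.0, 77.6 and 78.4 CPM in KO. It rose by 0.51 ± 0.09 on the log2 scale (SE; edgeR, adjusted p = 0.00207). The other gene records of that list did not pass, and the median of all 21 was 0.07, close to that of the TRiC subunits.

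Prefoldin, a jellyfish-shaped co-chaperone, hands unfolded actin and tubulin to TRiC. None of its 6 subunits was called, 5 had a log2 change above 0, and the median was 0.17. Pfdn5 had 250.3, 237 and 261 CPM in WT and 304, 313 and 277 CPM in KO, apart but not past the threshold (log2 0.26 ± 0.07; edgeR, adjusted p = 0.0582). Pfdn2 had 132 ± 22.1 CPM in WT and 145 ± 22.5 CPM in KO. Their tails, at 82.8 ± 1.42 nt and 89.8 ± 1.61 nt in WT, were shorter than those of every TRiC subunit.

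Among the other chaperonins, Hspd1 and Hspe1 encode the mitochondrial pair Hsp60 and Hsp10. Hspe1 had 174 ± 7.75 CPM in WT and 200.6 ± 11.4 CPM in KO (log2 0.21 ± 0.07; edgeR, adjusted p = 0.176), and Hspd1 had 141 ± 5.34 and 147 ± 9.34 CPM (log2 0.06). With Mkks, 3 of the 7 genes of that list could be tested and none was called. Phosducin-like cofactors of TRiC help to deliver G protein beta subunits and other chains. In the list of these and other cofactors, none of 5 was called. Txndc9 had a log2 change of 0.20 and Ric8a, which is not phosducin-like, of 0.08. Of the R2TP and prefoldin-like genes, none of 7 was called, and the median was -0.03; the ATPase Ruvbl1 had 35.2 ± 1.86 CPM in WT and 44.7 ± 1.20 CPM in KO (log2 0.34 ± 0.11; edgeR, adjusted p = 0.132), while Uri1 had a log2 change of -0.13.

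Among the substrates, actin and its relatives had none of 7 called (median log2 0.08). Actg1 had 1496 ± 33.4 CPM in WT and 1577 ± 69.4 CPM in KO, and Actb 495 ± 32.6 and 555 ± 19.01 CPM. Of the tubulins, none of 12 was called (median log2 0.08), with Tuba1a at 1569 ± 49.0 CPM in WT and 1667 ± 36.7 CPM in KO and Tuba1b at 895 ± 33.0 and 955 ± 30.9 CPM. The tubulin cofactors, which take tubulin on after TRiC, had none of 7 called (median log2 0.09), with Arl2 at 0.09 and Tbcb at 0.14.
Of the WD40 and other substrates, none of 19 was called (median log2 0.02), with log2 changes of 0.15 for Gnb2 and 0.02 for Gnb1, which encode G protein beta subunits. No gene of these lists was called for tail length.

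**Figure D5:**
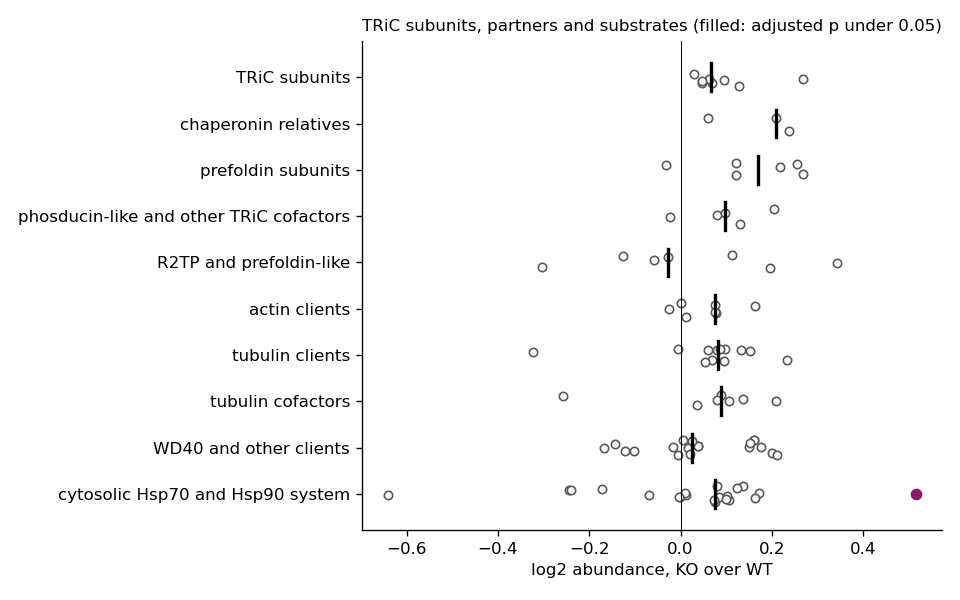
Log2 abundance change, KO over WT, of each tested gene in the lists of TRiC subunits, partners, substrates and other chaperonins. Points are genes (vertical scatter only for display), black lines are list medians and filled points passed edgeR's test at adjusted p under 0.05. Dnajb1 (0.51) is the only filled point, and the TRiC median of 0.07 lies among those of the other lists, which run from -0.03 to 0.21.

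Among the 5 genes whose abundance over the 6 libraries was most like the mean of the 8 subunits, by the root mean square difference of centred log2(CPM + 1) among 9355 genes, were Ptcd3 (0.0177), Mtmr6 (0.0218), Kif1bp (0.0224) and BC031181 (0.0232). The median gene had 0.139, among genes with a mean of at least 10 CPM. Counting error is larger at low counts, so this median is not a like measure for the members. The members themselves, which make up the mean of the 8 subunits, ran from 0.0338 for Cct5 to 0.0823 for Tcp1 and 0.0919 for Cct4. Cct4 thus departed most from the common profile, and counting error enters all these values. Ptcd3, a pentatricopeptide protein of the mitochondrial ribosome, had 34.0, 31.7 and 32.5 CPM in WT and 33.9, 35.4 and 36.1 CPM in KO.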

How the data were processed

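Poly(A) RNA of 3 WT and 3 Fmr1 KO cortex samples was sequenced directly on a nanopore PromethION, per the labels' protocols. Per the file headers, each transcript row of the deposited table has a mean tail (nt), a read count for that mean and an RPM value in every sample. It also holds the authors' comparison, with a mean signal (baseMean), a log2 fold change, its error, a test score and a p-value, without a stated direction. Salmon 1.5.2, SAMtools 1.9, minimap2 2.17, DESeq2 and mm10 are named, per the submitters' processing notes, with no roles and no tail estimator. RPM values were whole multiples of 1 read (within 0.01) for 99.9% of values in WT replicate 1 and 100% elsewhere, so whole reads were recovered.

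Samples were grouped by title. Counts were summed per gene and tested with edgeR 4.0.16 (TMM, filterByExpr, quasi-likelihood), also per transcript row. Tails were tested as log2(mean nt + 1) with limma 3.58.1 (variance trend) where each library had at least 10 tail reads. Adjusted p-values are Benjamini-Hochberg over all features, with a threshold of 0.05. Gene tail lengths are means weighted by reads. Figures used matplotlib 3.10.9 and exact permutation scipy 1.17.1. Of the identifiers, 97.9% matched GENCODE mouse release 21, which may not be the authors' release. The fits were tested on simulated data. Alternatives covered scaling, DESeq2 1.42.0, filters, weights, centring, recovered reads, a replicate block and leaving out each library.

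The members, gene lists and tests were chosen with earlier results of these data known. Besides the members and Fmr1, the genes named are the 5 most like the members, and from each list up to 4 called genes or otherwise the 2 with most reads. A few items these rules cover are not reported here. Ttr, Nrgn, Mkks, the 4 excitatory markers below 0, the 569 nt form of Cct2 and the 614 nt form of Tcp1 were named after their values were seen.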

Additional observations from a re-analysis of the deposited data

How the results depend on the processing

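No TRiC gene or row passed a test under any setting run. Over the members, 313 comparisons with an alternative kept their direction and their side of the threshold, and 23 changed direction, all of them small changes that never passed. With libraries centred on their median, which moved the median of all rows from -0.01 to 0.0048, the log2 tail changes of Cct2, Cct3 and Tcp1 became 0.0026, 0.017 and 0.010, and with weights from read number that of Cct3 became 0.00092. With limma on log2(RPM + 1), where the median of all genes was -0.05, the log2 abundance changes of Tcp1, Cct5 and Cct8 became -0.015, -0.0028 and -0.022. Leaving out each library in turn, the log2 tail change ran from -0.063 to 0.0078 for Cct2, -0.028 to 0.026 for the main row of Cct3, -0.11 to 0.15 for its 1804 nt row, -0.018 to 0.058 for Cct7, -0.034 to 0.039 for Cct8, -0.028 to 0.022 for the main row of Tcp1 and -0.085 to 0.022 for its 3419 nt row, whose abundance change ran from -0.060 to 0.25. Over all features, tail calls numbered 0, or 22 with weights. Gene calls numbered 129, or 83 with DESeq2, 249 without a filter, 79 with limma on RPM and 57 to 206 with a library left out. Transcript row calls numbered 103, or 52 with DESeq2, 180 without a filter and 44 to 163 with a library left out. The causes were not tested. With the replicate number as a block, gene calls were 92, transcript row calls 171 and tail calls 0. Libraries of the same number correlated in their deviations from the group means between -0.065 and 0.048. Counting noise lowers such correlations, so they cannot decide whether samples of the same number were paired, and the labels do not say. Reads per library and 3 libraries a group limit the precision.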
